A study of Homo sapiens with 9 samples.

Results

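The genes described here are 37 genes of mitosis and of the kinetochore, the protein assembly that couples chromosomes to spindle microtubules, named as a list of symbols. Of these, 36 were found among the 18153 genes of the deposited gene-level table, and DLGAP5 was not found there. They were followed in Huh-7, a human hepatoma line grown as a stable culture after lentiviral delivery of a short hairpin RNA (shRNA). The groups were shNDRG3 cells in hypoxia for 6, 12 and 24 h, shHIF1A cells in hypoxia for 12 h, shGFP control cells in hypoxia for 6, 12 and 24 h, and shGFP cells in normoxia. The shRNA of the first line targets NDRG3, that of the second targets HIF1A, the oxygen-regulated subunit of hypoxia-inducible factor 1, and that of the controls targets GFP, so every group carries a lentiviral hairpin. Hypoxia meant 1% oxygen, and neither knockdown line had an array in normoxia.

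Each of the 9 groups was measured on 1 Illumina expression array. A first platform held 6 arrays, with 1 shGFP normoxia array serving both 6 h and 12 h. A second platform held the 3 arrays of the 24 h series with a normoxia array of its own. No condition was repeated, so single differences carry no test, and their precision is limited by how few arrays there are. Values are intensities on a linear scale, and differences are on the scale of log2(intensity + 32). Each difference between arrays was taken within a platform. The shNDRG3 difference of 24 h, from the second platform, was later set against those of 6 h and 12 h, from the first. That interaction term does compare across the platforms. All 36 genes lay above the filter on low values (an intensity of 127.3 on the first platform and 210.2 on the second) on every array, so none entered through one group alone. In an array of bulk RNA, a smaller share of cells in mitosis and less RNA of a gene per such cell cannot be told apart.

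A cell entering mitosis activates cyclin-dependent kinase through B-type cyclins and CDC25 phosphatases, condenses its chromosomes and builds a spindle of microtubules with the help of Aurora and Polo kinases and kinesin motors. The spindle checkpoint (the BUB and MAD proteins and the kinase TTK) holds back the anaphase-promoting complex until every kinetochore is attached; CDC20 then turns that complex on, and cyclins and securin are degraded. Most of these genes are transcribed in late S, G2 and M phase and are repressed in quiescent cells, and a cell cycle homology region (CHR) and CCAAT boxes in the promoter are known elements of that control. Liver cells in the adult rarely divide, whereas hepatoma lines cycle continuously.

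The promoters of the 4 genes with the lowest difference at 12 h of hypoxia are shown as examples, and both known elements occur in each of them. They are RefSeq sequences of GRCh38.p14, from 250 bases before to 50 after the annotated start, given 5′ to 3′ on the strand of the gene. Capitals mark the CHR letters TTTGAA or TTTAAA and the letters CCAAT, on either strand (TTCAAA and ATTGG on the other strand). CDC20 (chr1:43358731-43359030, plus strand), CENPA (chr2:26785806-26786105, plus strand), CCNB1 (chr5:69166900-69167199, plus strand) and ASPM (chr1:197146620-197146919, minus strand) read as follows.
CDC20: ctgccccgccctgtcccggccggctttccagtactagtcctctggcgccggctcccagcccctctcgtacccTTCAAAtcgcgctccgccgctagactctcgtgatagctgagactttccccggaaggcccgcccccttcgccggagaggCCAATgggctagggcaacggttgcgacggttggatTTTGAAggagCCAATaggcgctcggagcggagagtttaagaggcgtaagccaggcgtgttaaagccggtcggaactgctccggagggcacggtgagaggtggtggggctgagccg
CENPA: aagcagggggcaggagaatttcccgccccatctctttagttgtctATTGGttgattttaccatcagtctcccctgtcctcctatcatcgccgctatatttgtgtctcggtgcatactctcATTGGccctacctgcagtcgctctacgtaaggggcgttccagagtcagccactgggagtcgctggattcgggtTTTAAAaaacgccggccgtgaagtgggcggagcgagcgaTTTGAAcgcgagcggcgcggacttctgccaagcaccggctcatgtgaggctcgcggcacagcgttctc
CCNB1: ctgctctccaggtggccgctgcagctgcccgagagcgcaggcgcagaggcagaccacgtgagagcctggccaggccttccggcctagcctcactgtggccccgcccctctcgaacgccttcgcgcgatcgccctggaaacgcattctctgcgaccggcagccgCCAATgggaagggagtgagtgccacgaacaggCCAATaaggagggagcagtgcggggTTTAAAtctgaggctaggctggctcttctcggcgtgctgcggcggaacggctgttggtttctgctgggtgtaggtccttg
ASPM: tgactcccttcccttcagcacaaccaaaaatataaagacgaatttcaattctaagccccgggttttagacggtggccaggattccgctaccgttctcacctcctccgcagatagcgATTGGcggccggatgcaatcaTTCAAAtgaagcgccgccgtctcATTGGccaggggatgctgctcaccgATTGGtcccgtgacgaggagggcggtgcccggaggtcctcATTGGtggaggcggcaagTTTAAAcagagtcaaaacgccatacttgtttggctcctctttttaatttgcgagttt
The CHR letters began 65 bases before the start in CDC20, 18 in CENPA, 30 in CCNB1 and 7 in ASPM at the match nearest to it. CDC20, CENPA and ASPM held 2 CHR matches each, and ASPM held 4 CCAAT matches.

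Windows of this kind were held for 29 of the 36 genes (37 windows, as some genes have several starts), and no window was used for FOXM1, AURKA, TTK, BUB3, UBE2C, BIRC5 and TPX2. CHR letters occurred in 70.3% of the 37 windows, against 24% of the windows of all genes (n = 35116). CCAAT occurred in 81.1%, against 34.6% of all windows, and both together in 59.5%, against 9.27%. A CHR match that began between 60 bases before and 40 bases after the start was present in 54.1%, against 7.99% of all windows. The windows of other mitosis genes (n = 130) lay between these shares, with CHR letters in 47.7%, CCAAT in 50% and a CHR match near the start in 33.1%. DNA replication genes, which are transcribed earlier in the cell cycle, held CHR letters in 14% of 50 windows and CCAAT in 58%. BUB1B had 1 CHR match, 23 bases before its start, and no CCAAT match. Both elements also occurred in genes with small differences at 12 h of hypoxia, such as CCNB2 (-0.35) and KIF4A (-0.35). The window of CCNA2 (-1.11) held no CHR match, and no window of CDC25B (-1.25) held both elements. A relation between the elements and the size of the difference was not tested. A match describes the letters of a window and is not a site shown to be bound.

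The targeted genes were low in their own lines. After 6, 12 and 24 h of hypoxia NDRG3 read 268, 215 and 233 in shNDRG3 cells, against 1278, 1456 and 1712 in shGFP cells. The shHIF1A array read 231 for HIF1A, against 897 on the shGFP array of the same time. HIF1A was also lower on the shNDRG3 array of 24 h, at 331, against 572 in shGFP hypoxia and 879 in shGFP normoxia. At 6 h and 12 h it read 805 and 1065 in shNDRG3 cells, against 824 and 897 in shGFP cells. The median over all genes was 169 to 173 on arrays of the first platform and 270 to 276 on those of the second. Of 19 hepatocyte and hepatoma markers in the table, between 2 and 5 reached the filter on an array, and AFP (98 to 187) reached it on none. ALB was over it on the first platform (165 to 229) and under it on the second (160 to 168), and HNF4A was over it on 1 array, that of shNDRG3 cells at 12 h (136). APOA1 was over it on the shHIF1A array (141) and, at 24 h of hypoxia, in shGFP (316) and shNDRG3 cells (345). The hepatoma identity rests on the sample titles, and most of these markers did not bear it out. On the first platform the summed hepatocyte marker intensity was 23303 to 30683 and that of 17 markers of other cell types 16126 to 33093. The shNDRG3 array of 24 h stood apart: its summed hepatocyte marker intensity was 5494, against 12563 in shGFP hypoxia and 14657 in shGFP normoxia of that platform, and that of the 17 markers of other cell types was 4333, against 17851 and 12043. Of the 17 markers of other cell types, between 5 and 7 reached the filter on an array. On the shNDRG3 array of 24 h 3 hepatocyte markers and 6 of the others reached it, the same numbers as in shGFP hypoxia. None of these markers was at 0, since background remains in the values. Results that rest on that array are therefore given apart from those of 6 h and 12 h.

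The first comparison asked how the mitosis genes of control cells stood in low oxygen. At 12 h all 36 were lower than in normoxia, with a median log2 difference of -0.87, against -0.01 over all genes past the filter. The lowest were CDC20, the activator of the anaphase-promoting complex (-1.80), the centromeric histone CENPA (-1.66), cyclin B1 (CCNB1, -1.55) and the spindle pole protein ASPM (-1.48). At 6 h the median was -0.28 and at 24 h, on the second platform, -0.32, against -0.02 and -0.03 over all genes. Summed markers of other cell types were higher in hypoxia in these cells, at 16126 in normoxia, 23121 after 6 h and 24872 after 12 h, and at 17851 after 24 h, against 12043 in normoxia of that platform. Summed hepatocyte markers were 23303, 24850 and 23902 on the first 3 of these arrays. The part of either in the mitosis gene differences was not tested.

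At 6 h 30 of the 36 genes lay below 0, where 53.2% of all genes did, and 1 (BUB1B) was at least 1.5-fold lower, a threshold that 1.13% of all genes reached. At 12 h 36 of 36 lay below 0 (51.6% of all genes), 25 were at least 1.5-fold lower (7.03% of all genes) and 14 at least 2-fold lower (1.53%). At 24 h 27 lay below 0 (52.7%), 11 were at least 1.5-fold lower (9.2%) and ASPM and CDC20 were at least 2-fold lower (1.95%). None of the 36 was at least 1.5-fold higher at any of the 3 times, a threshold that 2.31%, 7% and 8.97% of all genes reached at 6, 12 and 24 h. In shGFP cells 30 of 36 genes were ordered with normoxia above 6 h and 6 h above 12 h, an order whose share over all genes was not computed. The 6 h and 12 h differences share their normoxia array, and the 24 h difference rests on other arrays. As that shared array stands for both times, hours of hypoxia and hours in culture cannot be told apart between 6 h and 12 h.

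**Figure D1:**
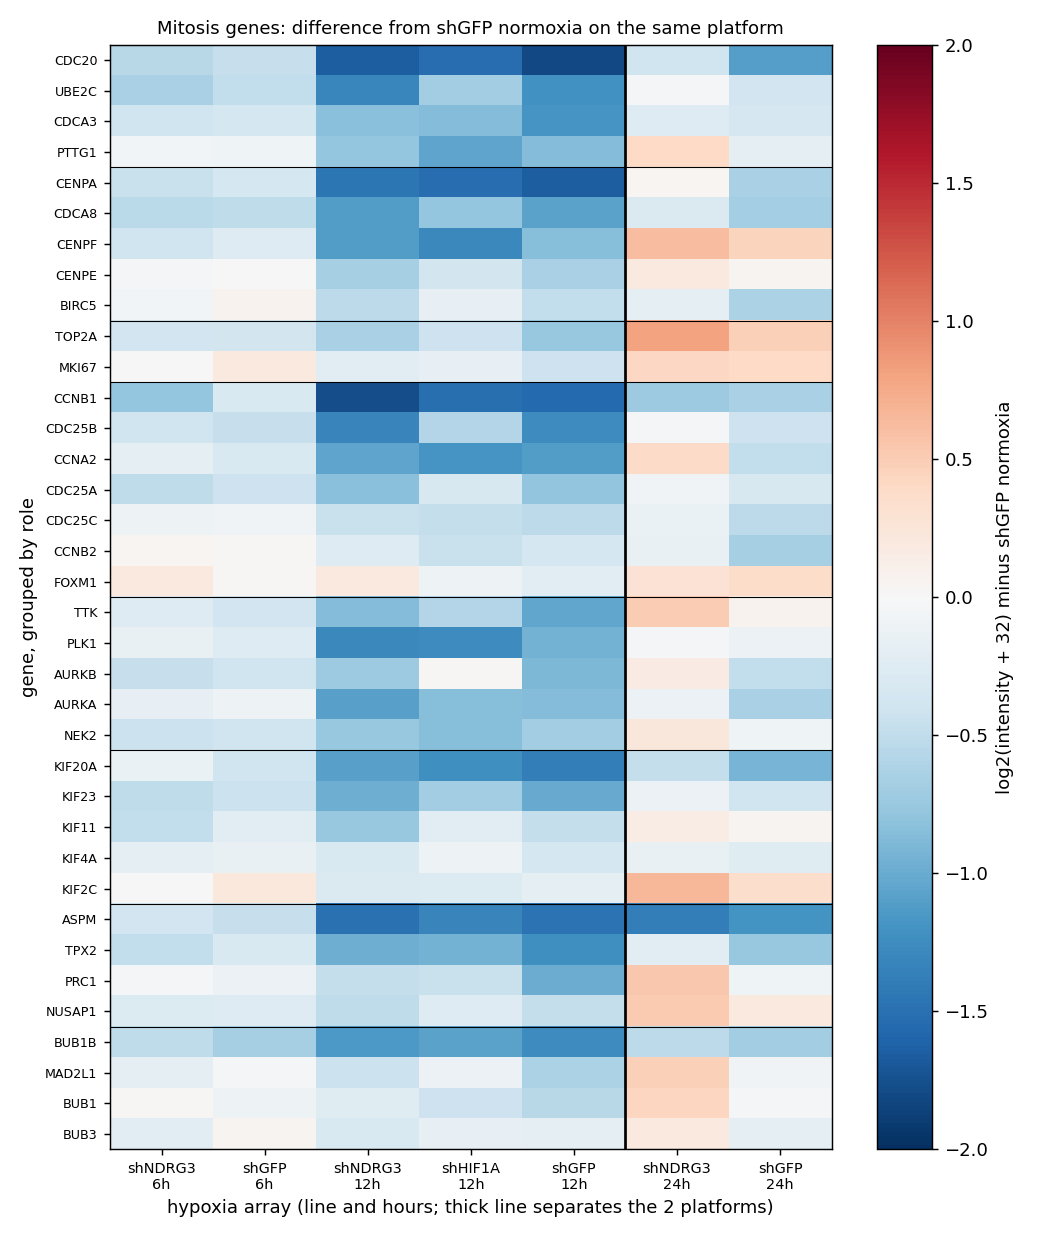
Difference of each of the 36 genes from shGFP normoxia of the same platform (colour, log2(intensity + 32)), with 1 column per hypoxia array and 1 row per gene, grouped by role. The 12 h columns are the bluest, with CDC20 at -1.80 in shGFP cells, and TOP2A (0.81) and KIF2C (0.67) are among the reddest cells in the shNDRG3 column of 24 h.

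The partners and substrates of the anaphase-promoting complex had the lowest median of the 8 role groups at 12 h (-1.19). CDC20 read 10932 in shGFP normoxia, 7393 in shNDRG3 and 7924 in shGFP cells after 6 h, and 3451 in shNDRG3, 3796 in shHIF1A and 3122 in shGFP cells after 12 h. CDC20 at 24 h read 7358 in shNDRG3 and 4541 in shGFP cells, against 9734 in shGFP normoxia. All 3 arrays of 12 h were below the other 3 of the first platform without overlap, and of the 24 h series the shGFP hypoxia array was the lowest. UBE2C, the ubiquitin-conjugating enzyme of the complex, read 4559 in shGFP normoxia, 2895 in shNDRG3 and 3219 in shGFP cells after 6 h, and 1819 in shNDRG3, 2806 in shHIF1A and 1954 in shGFP cells after 12 h. UBE2C at 24 h read 5394 in shNDRG3 and 4199 in shGFP cells, against 5505 in shGFP normoxia. Its differences in control cells were -0.50, -1.21 and -0.39 at 6, 12 and 24 h. PTTG1, or securin, which holds separase inactive until anaphase, read 11028 in shGFP normoxia, 10598 in shNDRG3 and 10404 in shGFP cells after 6 h, and 6438 in shNDRG3, 5282 in shHIF1A and 6011 in shGFP cells after 12 h. PTTG1 at 24 h read 14163 in shNDRG3 and 9504 in shGFP cells, against 10762 in shGFP normoxia. At 6 h it was close to normoxia in both lines, and at 12 h it was lower on all 3 arrays. The fourth member, CDCA3, a trigger of WEE1 degradation, differed by -0.34, -1.17 and -0.33.

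Among centromere, kinetochore and chromosomal passenger genes the median at 12 h was -0.85. CENPA, the histone variant that marks centromeres, read 1309 in shGFP normoxia, 955 in shNDRG3 and 1020 in shGFP cells after 6 h, and 458 in shNDRG3, 437 in shHIF1A and 394 in shGFP cells after 12 h. CENPA at 24 h read 1834 in shNDRG3 and 1119 in shGFP cells, against 1781 in shGFP normoxia. It was more than 2-fold lower on each 12 h array than on each 6 h array, while the shNDRG3 array of 24 h was at the normoxia level. CENPF, a kinetochore protein of the corona, read 1743 in shGFP normoxia, 1312 in shNDRG3 and 1452 in shGFP cells after 6 h, and 782 in shNDRG3, 695 in shHIF1A and 952 in shGFP cells after 12 h. CENPF at 24 h read 3213 in shNDRG3 and 2824 in shGFP cells, against 2073 in shGFP normoxia. CENPF was thus lower at 12 h (-0.85) and higher at 24 h (0.44) in control cells, each against its own normoxia array. CDCA8 (borealin), a subunit of the chromosomal passenger complex, read 1856 in shGFP normoxia, 1272 in shNDRG3 and 1301 in shGFP cells after 6 h, and 840 in shNDRG3, 1069 in shHIF1A and 864 in shGFP cells after 12 h. CDCA8 at 24 h read 1933 in shNDRG3 and 1462 in shGFP cells, against 2368 in shGFP normoxia. It was below normoxia on all 7 hypoxia arrays. BIRC5 (survivin) of the same complex differed by 0.07, -0.49 and -0.64 in control cells, and the kinetochore motor CENPE by -0.01, -0.66 and 0.05.

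The 7 cyclins, CDC25 phosphatases and FOXM1 had a median of -0.78 at 12 h, with a wide spread within the group. CCNB1, the cyclin that drives mitotic entry, read 1793 in shGFP normoxia, 1037 in shNDRG3 and 1442 in shGFP cells after 6 h, and 500 in shNDRG3, 608 in shHIF1A and 590 in shGFP cells after 12 h. CCNB1 at 24 h read 1212 in shNDRG3 and 1288 in shGFP cells, against 2030 in shGFP normoxia. In both lines the 24 h value was well under normoxia, and the 12 h arrays were the lowest of their platform. CCNA2, the cyclin of S and G2 phase, read 3715 in shGFP normoxia, 3244 in shNDRG3 and 2993 in shGFP cells after 6 h, and 1767 in shNDRG3, 1614 in shHIF1A and 1704 in shGFP cells after 12 h. CCNA2 at 24 h read 6890 in shNDRG3 and 3738 in shGFP cells, against 5297 in shGFP normoxia. It was the gene with the widest gap between the lines at 24 h. CCNB2, the other B-type cyclin of somatic cells, read 6289 in shGFP normoxia, 6452 in shNDRG3 and 6420 in shGFP cells after 6 h, and 5259 in shNDRG3, 4598 in shHIF1A and 4929 in shGFP cells after 12 h. CCNB2 at 24 h read 7575 in shNDRG3 and 5290 in shGFP cells, against 8423 in shGFP normoxia. Its difference at 12 h (-0.35) was far smaller than that of CCNB1 (-1.55), while at 24 h the values were -0.67 and -0.64.

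CDC25B, a phosphatase that starts the activation of cyclin B1 kinase, read 3186 in shGFP normoxia, 2416 in shNDRG3 and 2303 in shGFP cells after 6 h, and 1251 in shNDRG3, 2101 in shHIF1A and 1320 in shGFP cells after 12 h. CDC25B at 24 h read 2190 in shNDRG3 and 1677 in shGFP cells, against 2234 in shGFP normoxia. The shHIF1A array stood between the other 12 h arrays and normoxia. CDC25A differed by -0.42, -0.78 and -0.31 in control cells and CDC25C by -0.08, -0.52 and -0.52. FOXM1, a transcription factor that activates many of these genes, read 1105 in shGFP normoxia, 1271 in shNDRG3 and 1125 in shGFP cells after 6 h, and 1275 in shNDRG3, 1026 in shHIF1A and 937 in shGFP cells after 12 h. FOXM1 at 24 h read 1401 in shNDRG3 and 1482 in shGFP cells, against 1140 in shGFP normoxia. Its arrays overlapped between 6 h and 12 h, and it was above normoxia on both 24 h hypoxia arrays.

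The 5 mitotic kinases were each at least 1.5-fold lower at 12 h in control cells, with a median of -0.90. AURKA, the centrosomal Aurora kinase, read 5164 in shGFP normoxia, 4607 in shNDRG3 and 4788 in shGFP cells after 6 h, and 2424 in shNDRG3, 2833 in shHIF1A and 2820 in shGFP cells after 12 h. AURKA at 24 h read 5596 in shNDRG3 and 3873 in shGFP cells, against 6090 in shGFP normoxia. It was near normoxia at 6 h in shNDRG3 and shGFP cells, and lower at 12 h in all 3 lines. AURKB, the kinase of the chromosomal passenger complex, read 2561 in shGFP normoxia, 1842 in shNDRG3 and 1934 in shGFP cells after 6 h, and 1538 in shNDRG3, 2601 in shHIF1A and 1353 in shGFP cells after 12 h. AURKB at 24 h read 9945 in shNDRG3 and 6355 in shGFP cells, against 8905 in shGFP normoxia. Of all 36 genes AURKB alone was as high on the shHIF1A array as in normoxia (0.02). PLK1, the Polo kinase of mitotic entry and spindle assembly, read 668 in shGFP normoxia, 600 in shNDRG3 and 554 in shGFP cells after 6 h, and 254 in shNDRG3, 260 in shHIF1A and 332 in shGFP cells after 12 h. PLK1 at 24 h read 953 in shNDRG3 and 889 in shGFP cells, against 966 in shGFP normoxia. Both knockdown arrays of 12 h were below the shGFP array, and the 3 arrays of 24 h lay close together. NEK2, a kinase that splits centrosomes, read 3304 in shGFP normoxia, 2447 in shNDRG3 and 2487 in shGFP cells after 6 h, and 1946 in shNDRG3, 1814 in shHIF1A and 2022 in shGFP cells after 12 h. NEK2 at 24 h read 1739 in shNDRG3 and 1384 in shGFP cells, against 1479 in shGFP normoxia. TTK (MPS1), the kinase that starts checkpoint signalling, differed by -0.39, -1.03 and 0.07 in control cells.

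**Figure D2:**
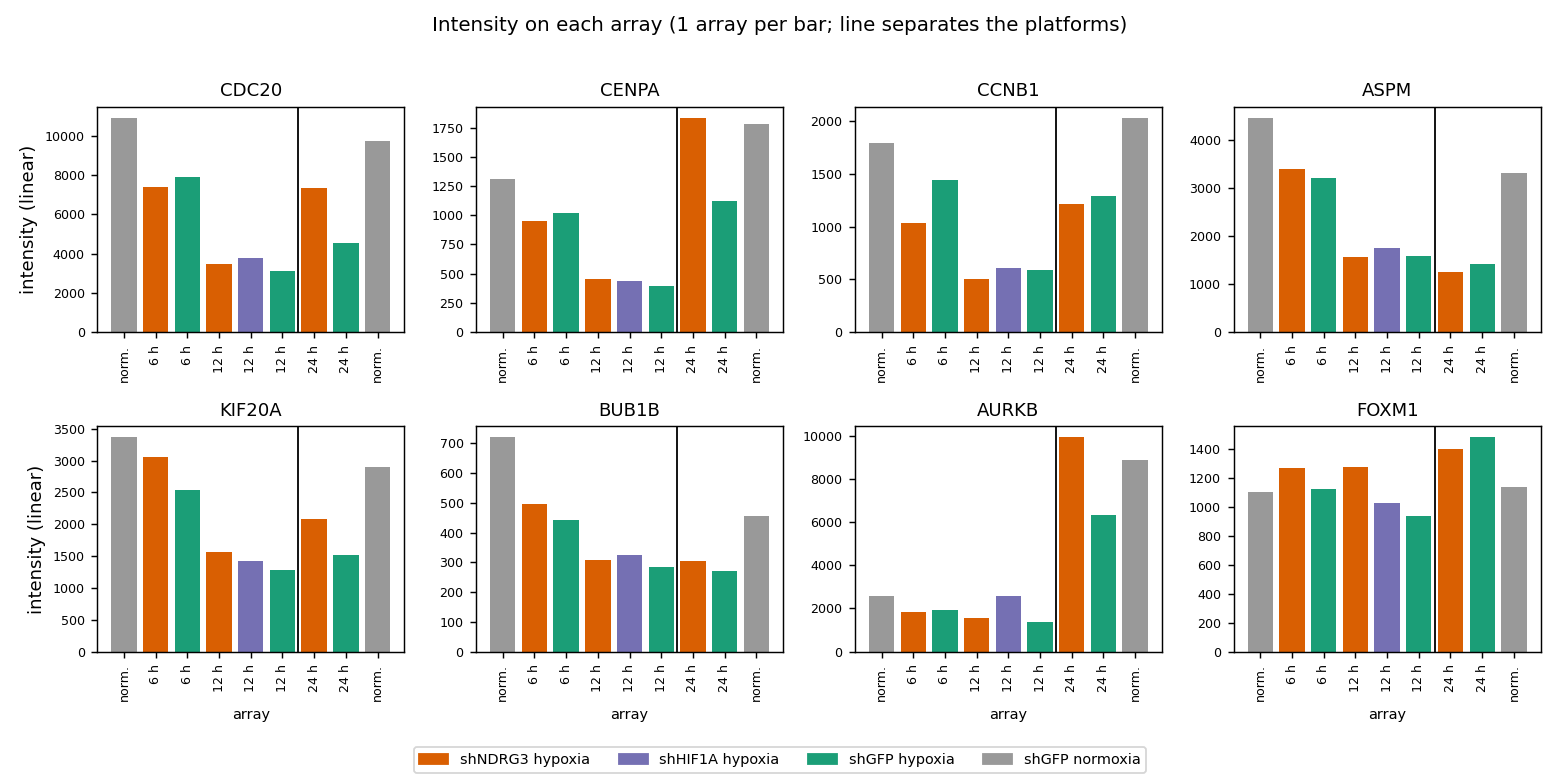
Linear intensity (vertical axis) of 8 genes on each of the 9 arrays, 1 bar per array, coloured by line and condition, with a vertical line between the platforms. CDC20, CENPA, CCNB1, ASPM and KIF20A were lowest on the first platform on the 3 arrays of 12 h, AURKB was at 2601 on the shHIF1A array, and FOXM1 stayed between 937 and 1275 on the first platform.

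The 4 spindle assembly and midzone genes had a median of -1.11 at 12 h. ASPM, which organises spindle poles, read 4474 in shGFP normoxia, 3408 in shNDRG3 and 3224 in shGFP cells after 6 h, and 1575 in shNDRG3, 1764 in shHIF1A and 1581 in shGFP cells after 12 h. ASPM at 24 h read 1252 in shNDRG3 and 1426 in shGFP cells, against 3312 in shGFP normoxia. Every 12 h and 24 h hypoxia array was more than 2-fold below its normoxia array. TPX2, which targets AURKA to the spindle, read 3600 in shGFP normoxia, 2537 in shNDRG3 and 2905 in shGFP cells after 6 h, and 1807 in shNDRG3, 1863 in shHIF1A and 1524 in shGFP cells after 12 h. TPX2 at 24 h read 2491 in shNDRG3 and 1696 in shGFP cells, against 2901 in shGFP normoxia. It differed by -1.22 at 12 h and by -0.76 at 24 h in control cells. PRC1, which bundles the microtubules of the midzone, read 8399 in shGFP normoxia, 8270 in shNDRG3 and 7729 in shGFP cells after 6 h, and 6014 in shNDRG3, 6162 in shHIF1A and 4188 in shGFP cells after 12 h. PRC1 at 24 h read 13372 in shNDRG3 and 8662 in shGFP cells, against 9193 in shGFP normoxia. The shGFP array of 12 h was the lowest of its platform, and both knockdown arrays lay between it and the 6 h arrays. NUSAP1, a spindle microtubule binder, read 6386 in shGFP normoxia, 5291 in shNDRG3 and 5323 in shGFP cells after 6 h, and 4465 in shNDRG3, 5322 in shHIF1A and 4595 in shGFP cells after 12 h. NUSAP1 at 24 h read 8673 in shNDRG3 and 6911 in shGFP cells, against 6009 in shGFP normoxia. Its 6 h and 12 h arrays overlapped, with shHIF1A cells at 12 h level with both 6 h arrays.

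Mitotic kinesins had the smallest median of the role groups at 12 h (-0.48). KIF20A, a motor of cytokinesis, read 3368 in shGFP normoxia, 3062 in shNDRG3 and 2543 in shGFP cells after 6 h, and 1569 in shNDRG3, 1426 in shHIF1A and 1276 in shGFP cells after 12 h. KIF20A at 24 h read 2079 in shNDRG3 and 1514 in shGFP cells, against 2907 in shGFP normoxia. It was at least 2-fold below normoxia on all 3 arrays of 12 h. KIF11, the motor that pushes spindle poles apart, read 1372 in shGFP normoxia, 969 in shNDRG3 and 1171 in shGFP cells after 6 h, and 796 in shNDRG3, 1175 in shHIF1A and 974 in shGFP cells after 12 h. KIF11 at 24 h read 2601 in shNDRG3 and 2414 in shGFP cells, against 2332 in shGFP normoxia. Here the 6 h and 12 h arrays overlapped, with shHIF1A cells at 12 h at the shGFP level of 6 h. KIF2C, a microtubule depolymeriser at centromeres, read 1191 in shGFP normoxia, 1190 in shNDRG3 and 1376 in shGFP cells after 6 h, and 967 in shNDRG3, 977 in shHIF1A and 1044 in shGFP cells after 12 h. KIF2C at 24 h read 2735 in shNDRG3 and 2193 in shGFP cells, against 1707 in shGFP normoxia. It had the smallest difference of the 36 genes at 12 h (-0.18) and was above normoxia on both hypoxia arrays of 24 h. KIF23, of the central spindle, differed by -0.43, -1.02 and -0.40, and KIF4A, a chromosome-bound motor, by -0.15, -0.35 and -0.24.

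The spindle checkpoint genes differed from each other. BUB1B (BUBR1), an inhibitor of CDC20, read 721 in shGFP normoxia, 495 in shNDRG3 and 443 in shGFP cells after 6 h, and 309 in shNDRG3, 326 in shHIF1A and 283 in shGFP cells after 12 h. BUB1B at 24 h read 305 in shNDRG3 and 270 in shGFP cells, against 455 in shGFP normoxia. It was already lower at 6 h (-0.67), the lowest 6 h difference of the 36 genes, and was below normoxia on all 7 hypoxia arrays. BUB1, the kinase that recruits other checkpoint proteins, read 1381 in shGFP normoxia, 1403 in shNDRG3 and 1282 in shGFP cells after 6 h, and 1159 in shNDRG3, 1032 in shHIF1A and 931 in shGFP cells after 12 h. BUB1 at 24 h read 4226 in shNDRG3 and 3047 in shGFP cells, against 3142 in shGFP normoxia. BUB3, which docks both BUB proteins at kinetochores, read 5044 in shGFP normoxia, 4367 in shNDRG3 and 5232 in shGFP cells after 6 h, and 4077 in shNDRG3, 4509 in shHIF1A and 4396 in shGFP cells after 12 h. BUB3 at 24 h read 7118 in shNDRG3 and 5463 in shGFP cells, against 6229 in shGFP normoxia. BUB3 values lay close together on the first platform, and its 12 h difference was -0.20. MAD2L1 (MAD2) differed by -0.04, -0.63 and -0.08. It was dim on the first platform (between 145 and 242), where a difference is understated.

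The 2 chromosome structure genes were lower at 12 h and higher at 24 h in control cells. TOP2A, the topoisomerase that untangles sister chromosomes, read 9800 in shGFP normoxia, 7510 in shNDRG3 and 7574 in shGFP cells after 6 h, and 6228 in shNDRG3, 7349 in shHIF1A and 5775 in shGFP cells after 12 h. TOP2A at 24 h read 11929 in shNDRG3 and 9490 in shGFP cells, against 6814 in shGFP normoxia. Its difference was -0.76 at 12 h and 0.48 at 24 h. MKI67, the proliferation marker that coats mitotic chromosomes, read 406 in shGFP normoxia, 404 in shNDRG3 and 470 in shGFP cells after 6 h, and 341 in shNDRG3, 359 in shHIF1A and 295 in shGFP cells after 12 h. MKI67 at 24 h read 327 in shNDRG3 and 322 in shGFP cells, against 238 in shGFP normoxia. Its control difference was 0.20, -0.42 and 0.39 over the 3 times. The 9 genes above normoxia at 24 h in control cells were TOP2A, CENPF, MKI67, FOXM1, KIF2C, NUSAP1, TTK, CENPE and KIF11.

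A limma fit over the 5 shGFP arrays, with 1 hypoxia term and the platform as a block, called 0 of the 36 genes at a Benjamini-Hochberg adjusted p under 0.05 in either direction. In it 15 genes had an unadjusted p under 0.05, all lower, against 19.4% of all genes in either direction, and 0.384% of all genes were called higher and 0.0548% lower. The lowest limma adjusted p was 0.123, for BUB1B (difference -0.84, SE 0.20). The fit takes the 3 times as repeats. Once the 6 h array was left out limma called 11 of the 36 genes, all lower, against 3.72% of all genes lower, with ASPM at -1.34 (adjusted p = 0.00479) and CDC20 at -1.45 (adjusted p = 0.00748). Leaving out the 12 h array or the 24 h arrays gave 0 calls among the 36, with 13 and 18 at an unadjusted p under 0.05 in limma.

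The second comparison set 12 h against 6 h of hypoxia, where shNDRG3 and shGFP cells give separate pairs of arrays that share none. In shNDRG3 cells the median was -0.47 and in shGFP cells -0.59, against 0 over all genes in each line. In shNDRG3 cells 35 of 36 genes were below 0 (49.7% of all genes), with FOXM1 at 0, and 15 were at least 1.5-fold lower (2.42% of all genes). In shGFP cells 36 of 36 were below 0 (49.7% of all genes), and 20 were at least 1.5-fold lower (2.08%). At least 2-fold lower were 5 genes in shNDRG3 cells (0.203% of all genes) and 4 in shGFP cells (0.132%). Below 0 in both lines were 35 of 36 genes, against 36.8% of 10891 genes past the filter in both pairs. Pearson's r between the pairs was 0.82 across the 36 genes and 0.75 across all of these genes, as a description, since genes on the same arrays are not independent.

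**Figure D3:**
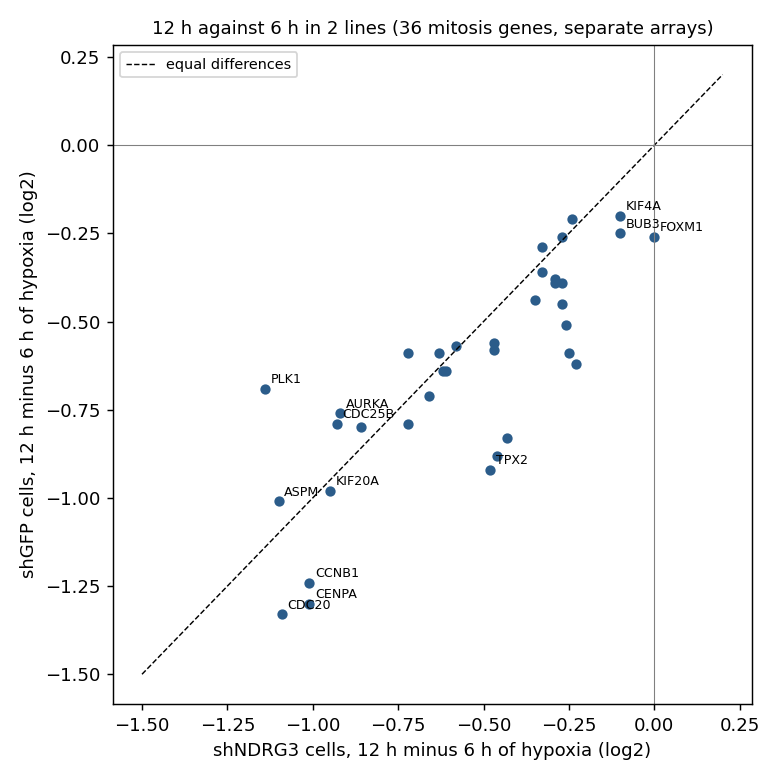
Log2 difference of 12 h minus 6 h of hypoxia in shNDRG3 cells (horizontal axis) and in shGFP cells (vertical axis), 1 point for each of the 36 genes, with a dashed line of equal differences. CDC20 lies at -1.09 and -1.33, PLK1 at -1.14 and -0.69, and FOXM1 at 0 and -0.26; the other 35 points lie below 0 on both axes.

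A limma fit to these 4 arrays, with the line as a block and chosen after the values were seen, called 32 of the 36 genes lower and 0 higher, against 12.5% of all genes lower and 12.7% higher. CDC20 fell by 1.21 (SE 0.10, limma adjusted p = 2.48e-09), CENPA by 1.16 (SE 0.10), CCNB1 by 1.13 (SE 0.09) and ASPM by 1.06 (SE 0.09). KIF20A (-0.96), PLK1 (-0.92), CDC25B (-0.86), AURKA (-0.84) and CCNA2 (-0.83) also fell. By role, 4 of 4 partners and substrates of the anaphase-promoting complex fell, 5 of 5 kinases, 5 of 5 centromere and passenger genes, 6 of 7 cyclins, phosphatases and FOXM1, 4 of 5 kinesins, 3 of 4 checkpoint genes, 3 of 4 spindle assembly genes and both chromosome structure genes. The genes that did not pass were NUSAP1 (-0.23, limma adjusted p = 0.0732), BUB3 (-0.17, adjusted p = 0.186), KIF4A (-0.15, adjusted p = 0.257) and FOXM1 (-0.13, adjusted p = 0.369). The residual degrees of freedom were 1 and the prior 23.66, so these calls lean on variance pooled over all 11825 genes, and each time is 1 culture per line. Without a normoxia array for each time, hours of hypoxia and hours in culture cannot be told apart in this fit.

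The 3 arrays of 12 h can also be set against the 3 others of the first platform, across lines. For 28 of 36 genes all 3 arrays of 12 h lay below the other 3, an arrangement found for 17.6% of all genes. The 8 exceptions were BUB3, AURKB, CDC25A, KIF11, KIF4A, NUSAP1, MAD2L1 and FOXM1.

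Other genes of cell division, taken from lists drawn up with earlier results of these data known, followed the same comparison in part. Of 21 other kinesin, spindle and cytokinesis genes limma called 16 lower and 0 higher at 12 h against 6 h, and of 18 other mitotic entry regulators 9 lower and 0 higher. Of 31 other kinetochore and centromere genes 8 fell and 4 rose, of 16 condensin, cohesin and separase genes 3 fell, and of 14 anaphase-promoting complex genes 3 fell and 2 rose. Of 43 DNA replication genes 1 (RFC3, a clamp loader subunit) fell and 9 rose, and of 21 G1 cyclins and CDK inhibitors 3 fell and 4 rose. Of all genes 12.5% fell and 12.7% rose in this fit, and several of these counts lie near those shares, among them the 4 kinetochore genes that rose, the 3 condensin and cohesin genes that fell, and the G1 genes that fell. The medians were -0.32, -0.26, -0.04, -0.08, -0.12, 0.09 and 0.07 in the order of these lists, against -0.59 for the 36 genes and 0 for all genes.

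Within those lists the lowest at 12 h against normoxia in control cells was FAM83D, a spindle recruiter of CK1 kinase. FAM83D read 3326 in shGFP normoxia, 1821 in shNDRG3 and 2376 in shGFP cells after 6 h, and 1110 in shNDRG3, 1016 in shHIF1A and 1113 in shGFP cells after 12 h. It fell by 0.89 in the 12 h against 6 h fit (limma adjusted p = 4.13e-07), as did HMMR, a spindle and centrosome protein, by 0.91. CKS2, a CDK-binding subunit, fell by 0.74 and read 5167 in shNDRG3, 5985 in shHIF1A and 5092 in shGFP cells at 12 h, against 10787 in shGFP normoxia. INCENP, the scaffold of the chromosomal passenger complex, fell by 0.58, and ANAPC13, a small subunit of the anaphase-promoting complex, by 0.70. Kinetochore genes KNTC1 and DSN1 rose, by 0.31 and 0.28.

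The DNA replication genes had no such difference as a list. At 6, 12 and 24 h of hypoxia their medians against normoxia in control cells were -0.02, -0.02 and -0.03, while the other mitosis genes were at -0.08, -0.23 and -0.05. TK1, the thymidine kinase of S phase, rose by 0.55 at 12 h against 6 h (limma adjusted p = 7.84e-05), and the licensing factor CDT1 rose by 0.44 (adjusted p = 0.00101). TK1 read 2875 in shGFP normoxia, 3298 in shNDRG3 and 3391 in shGFP cells after 6 h, and 5053 in shNDRG3, 3889 in shHIF1A and 4795 in shGFP cells after 12 h. CDKN1A (p21), an inhibitor of cyclin-dependent kinases, rose by 0.63 (adjusted p = 1.71e-05) in the same fit and read 5402 in shNDRG3, 4774 in shHIF1A and 4880 in shGFP cells at 12 h, against 1837 in shGFP normoxia. CCND1, the G1 cyclin, fell by 0.53 (adjusted p = 0.000137). At 24 h CDKN1A read 2677 in shNDRG3 and 2934 in shGFP cells, against 1432 in shGFP normoxia.

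**Figure D4:**
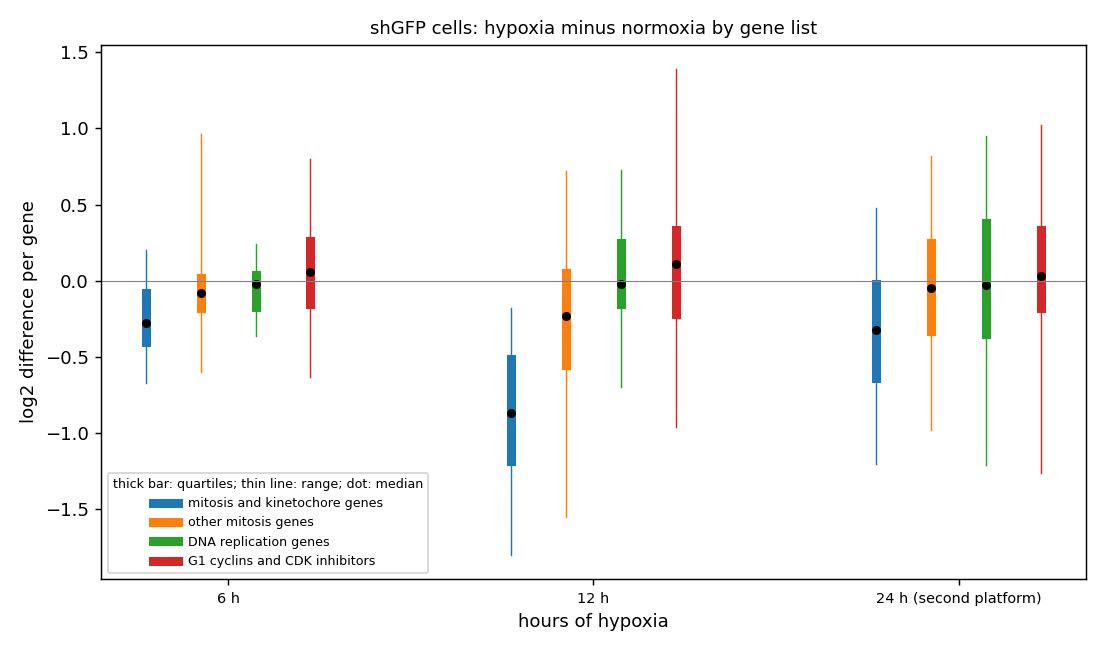
Log2 difference of hypoxia minus normoxia in shGFP cells at 6, 12 and 24 h for 4 gene lists, with the median (dot), quartiles (thick bar) and range (thin line) over genes. The 36 mitosis genes have medians of -0.28, -0.87 and -0.32, and the DNA replication genes of -0.02, -0.02 and -0.03.

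The third comparison asked whether the mitosis genes differed in NDRG3-depleted cells under hypoxia. At 6 h and 12 h they were near the controls, with medians of -0.04 and 0.05, against 0 over all genes at both times. None of the 36 was 1.5-fold apart at either time in either direction, a threshold that 0.423% of all genes reached in each direction at 6 h, and at 12 h 0.654% were higher by that much and 0.76% lower. CCNB1 was lower at both times (-0.46 and -0.23), and KIF20A (0.26 and 0.29) and FOXM1 (0.17 and 0.43) were higher. The largest difference at 12 h was that of PRC1 (0.52), and PLK1 was the lowest (-0.35).

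Set against shGFP normoxia, shNDRG3 cells at 12 h had 35 of 36 genes below 0 (50.8% of all genes) and a median of -0.80, with CCNB1 at -1.78, CDC20 at -1.65 and ASPM at -1.49. FOXM1 was the exception (0.20). The normoxia array is that of the control line, so line and oxygen differ together in these values.

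At 24 h the median was 0.37, against 0.04 over all genes, and 33 of 36 genes were higher in shNDRG3 than in shGFP cells, as were 54.6% of all genes. At least 1.5-fold higher were CCNA2 (0.88), CENPA (0.70), CDC20 (0.69), AURKB (0.64) and PRC1 (0.62), 5 of 36, a threshold reached by 5.53% of all genes. The 3 lower genes were ASPM (-0.18), CCNB1 (-0.09) and FOXM1 (-0.08). Every role group but chromosome structure (0.17) had a median of at least 0.28.

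Against normoxia, the 3 arrays of 24 h fell into several patterns. Of the 27 genes lower in shGFP hypoxia than in normoxia, 25 were higher in shNDRG3 than in shGFP hypoxia, and 9 of these 27 were at or above the normoxia level in shNDRG3 cells. The 27 were picked by the same shGFP hypoxia array, which by itself favours a higher shNDRG3 value. No share over all genes was computed for the counts of 25 and 9. Over all 36 genes 18 were at or above normoxia in shNDRG3 cells (median difference 0.01), as were 51.7% of all genes. CENPA was an example at the normoxia level (0.04), CDC20 stayed between the other arrays (-0.40), TOP2A was above (0.81) and ASPM was the lowest of all (-1.38). All of these share the shGFP or the normoxia array of 24 h, and no second shNDRG3 array of 24 h was analysed here. The marker sums that set this array apart and its lower HIF1A value are given above, and the part of either in the result was not tested.

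A limma fit over all 9 arrays with 1 NDRG3 term called 0 of the 36 genes, against 0% of all genes higher and 0.00755% lower. In it KIF20A (0.34), PRC1 (0.41) and BUB1 (0.30) had an unadjusted p under 0.05 (8.53% of all genes), with a lowest limma adjusted p of 0.527. With the 24 h arrays left out, CCNB1 was called lower (-0.34, limma adjusted p = 0.0285) and no other of the 36, a share close to the 2.7% of all genes called lower there.

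The difference at 24 h was itself set against the mean of those at 6 h and 12 h by an interaction term in limma, added after the values were seen. Of the 36 genes 13 had a higher difference at 24 h and 0 a lower one, against 9.29% of all genes higher and 9.96% lower. The gap was 0.79 for CCNA2 (SE 0.16, limma adjusted p = 0.00101), 0.67 for CDC20 (SE 0.16, adjusted p = 0.00561), 0.66 for AURKA (adjusted p = 0.00514), 0.64 for CENPA (adjusted p = 0.00866) and 0.59 for AURKB (adjusted p = 0.0135). BUB3, BIRC5, PTTG1, UBE2C, MAD2L1, KIF2C, CCNB2 and TPX2 also passed. MAD2L1 was dim on the first platform (145 to 242) and bright on the second (4018 to 5882). Its differences at 6 h and 12 h are thus understated against that at 24 h. The count was 8 with a pseudocount of 1 and 7 after background subtraction. The 24 h arrays form a platform of their own, so time and platform cannot be told apart in this difference. The fit matches the 24 h pair exactly, so its SE and p reflect only the 6 h and 12 h pairs. The spread of the 24 h arrays was not measured. Of all genes 5.53% were at least 1.5-fold higher in shNDRG3 cells at 24 h, against 0.423% at 6 h and 0.654% at 12 h.

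**Figure D5:**
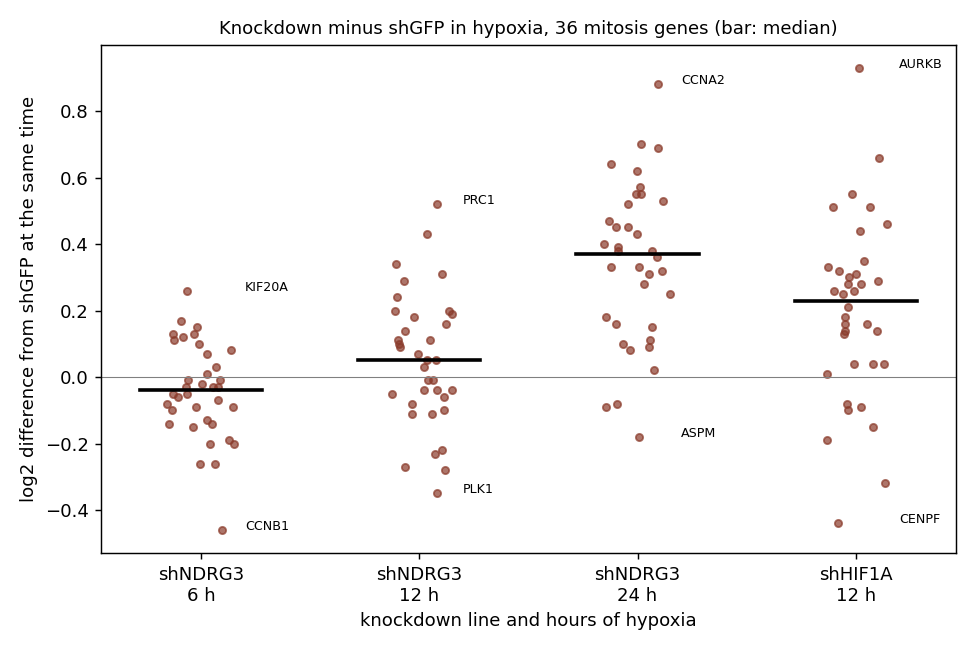
Log2 difference of each of the 36 genes in knockdown against shGFP cells at the same time of hypoxia, 1 point per gene with a bar at the median. The medians are -0.04, 0.05 and 0.37 for shNDRG3 at 6, 12 and 24 h and 0.23 for shHIF1A at 12 h, where AURKB is highest (0.93) and CENPF lowest (-0.44).

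The last comparison asked the same of HIF1A-depleted cells, on 1 array at 12 h. The median was 0.23, against 0.01 over all genes, and 29 of 36 genes were higher than in shGFP cells, as were 50.8% of all genes. Summed markers of other cell types were 33093 on this array, against 24872 on the shGFP array of 12 h, and their part in the result was not tested. AURKB (0.93) and CDC25B (0.66) were at least 1.5-fold higher, 2 of 36, a threshold that 3.24% of all genes reached. PRC1 (0.55), UBE2C (0.51), MAD2L1 (0.51), CDC25A (0.46) and TTK (0.44) followed. CENPF (-0.44), PLK1 (-0.32), PTTG1 (-0.19) and NEK2 (-0.15) were the lowest.

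Against shGFP normoxia, the array that the control difference of 12 h also uses, 35 of 36 genes were below 0 (50.5% of all genes), with a median of -0.59, and CDC20 was at -1.52, CENPA at -1.52, CCNB1 at -1.51 and ASPM at -1.33. In shGFP cells at 12 h these 4 genes were at -1.80, -1.66, -1.55 and -1.48 against the same array. As with shNDRG3 cells, line and oxygen differ together here. In the 9-array limma fit 0 of the 36 genes passed for HIF1A, against 0% of all genes in either direction. An unadjusted p under 0.05 was reached by 6 of them (10.8% of all genes), and the lowest limma adjusted p was 0.235, for CDC25B. Leaving out the 24 h arrays gave 8 limma calls among the 36, with AURKB (0.86, adjusted p = 1.05e-05), CDC25B, UBE2C, CDC25A, TTK, PRC1 and MAD2L1 higher and CENPF (-0.40, adjusted p = 0.0215) lower. In that fit 8.84% of all genes were called higher and 7.71% lower, so the 1 lower call is no more than the share of all genes. The lone shHIF1A array is assumed there to vary like the other arrays.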

How the data were processed

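Gene expression was measured on 9 Illumina arrays in 9 groups of 1, taken from the sample titles; 200 ng of RNA per sample went into a biotin-labelling amplification kit, per the labels' protocols. How the arrays were read and normalized is not given in the sources used here. The authors deposited a gene-level table of intensity on a linear scale for 18153 genes. Sorted probe values of a platform deviated from their mean over its arrays by at most 0.0269 and 0.004 (log2). The arrays of a platform thus had nearly the same distribution of probe values, and a shift of all genes between them could not show. The lowest probe values were 58 and 104.7, so background remains in the values. Of the 36 genes, 24 equalled 1 probe on the first platform and 20 on the second, and the others hold several probes or none that matched.

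Values were used as log2(intensity + 32), and genes under the 40th percentile of their platform (127.3 or 210.2) on every compared array were left out. limma 3.58.1 (R 4.3.3; lmFit, eBayes, Benjamini-Hochberg over all genes tested) was fitted to the 5 shGFP arrays (12774 genes) and to all 9 arrays (13237 genes), with 2 residual degrees of freedom each and priors of 5.07 and 3.77. With times taken as repeats, a p-value reflects variation among times of single cultures. The 12 h against 6 h fit (11825 genes, prior 23.66) and the 24 h interaction (prior 19.91), with 1 residual degree of freedom each, were added after the data were seen. Steps were tested on simulated data with 200 genes changed: at a log2 change of 1 the fits found 98.5% of them for hypoxia, 98% for NDRG3 and 52% for HIF1A. Wrongly called were 11, 16 and 14 unchanged genes, in the same order. The simulated noise was scaled to a fixed level and each change was equal on every treated array, whereas measured differences varied between times. These shares are therefore not the power of the fits on the real arrays. CDC20, at -1.11 in the hypoxia fit, was not called there (limma adjusted p = 0.172).

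Genes and lists were chosen with earlier results of these data known. Given on every array are the 4 lowest and 2 highest genes of each of the 7 differences, those past the test of the 3 planned fits and the 2 brightest of each role group; of the other lists, the 2 lowest and 2 highest at 12 h could be named, and RFC3 is named as the lone call of its list in its direction. Promoter sequences are from RefSeq (GRCh38.p14). Alternatives covered the pseudocount, the filter, centring, background subtraction, single-probe genes and left-out arrays.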

Additional observations from a re-analysis of the deposited data

Results flagged for a closer look

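The median shNDRG3 difference of the mitosis genes was 0.37 at 24 h, against -0.04 at 6 h and 0.05 at 12 h. An interaction term in limma called 13 of the 36 genes, each with a higher difference at 24 h, with CCNA2 at 0.79 (SE 0.16, adjusted p = 0.00101), against 9.29% of all genes higher and 9.96% lower. The median gap over the 36 genes was 0.36. The 24 h arrays lie on a platform of their own, so time and platform cannot be told apart. The SE and p of this term reflect only the 6 h and 12 h pairs, and the spread of the 24 h arrays was not measured.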

How the results depend on the processing

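No paired analysis was possible because the labels give no replicate numbers; the line block of the 12 h against 6 h fit and the terms for time match arrays by line or time, as part of those fits. The median differences of the 36 genes in the 7 comparisons kept their direction under each of 6 alternatives, ranging from -0.31 to -0.27, -0.97 to -0.82 and -0.41 to -0.31 in hypoxia at 6, 12 and 24 h, from -0.05 to -0.02, 0.05 to 0.10 and 0.35 to 0.38 for NDRG3, and from 0.20 to 0.24 for HIF1A. In limma, calls among the 36 genes differed from the main count of 0 without the 6 h array for hypoxia (11, all lower; 3.72% of all genes lower), without the 24 h arrays for NDRG3 (1, lower; 2.7%) and without the 24 h arrays for HIF1A (8, of which 7 higher and 1 lower; 8.84% and 7.71%), each with 1 residual degree of freedom, and calls over all genes were more frequent there too. The HIF1A fit without the 12 h arrays could not be made, as it leaves no shHIF1A array. The 12 h against 6 h count of 32 lay between 31 and 33 under 6 alternatives, and the 24 h interaction count of 13 was 8 with a pseudocount of 1 and 7 after background subtraction. The cause of these moves was not tested. Background remains in the values, which limits what dim genes can show, such as MAD2L1 on the first platform and MKI67 and BUB1B on the second. No culture was repeated.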
